A study of Mus musculus with 8 samples.

Results

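The respiratory chain is the set of protein complexes in the inner mitochondrial membrane that pass electrons from NADH and succinate to oxygen and use the energy released to make ATP. Complexes I to IV carry the electrons, cytochrome c moves them from complex III to complex IV, and complex V is the ATP synthase. Most subunits are encoded in the nucleus and imported, while a small core of complexes I, III, IV and V is encoded by the mitochondrial genome, so each of these complexes needs transcripts from both genomes. Complex II has nuclear subunits only. In adipose tissue the chain is best known for supporting fat oxidation and, in brown fat, for heat production.

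Subunits were taken by gene symbol, as the protein-coding genes of GENCODE M21 named Ndufa, Ndufb, Ndufc, Ndufs or Ndufv with a number, Sdha to Sdhd, Uqcr, Cox4 to Cox8, Atp5, the protein genes of the mitochondrial genome (prefix mt-), Cyc1 and Cycs. The rule found 99 genes among the 49671 gene entries of the deposited tables. Of these, 86 were nuclear (37 in complex I, 4 in complex II, 9 in complex III, 18 in complex IV, 17 in complex V and cytochrome c itself), and 13 were mitochondrial (7 in complex I, 1 in complex III, 3 in complex IV and 2 in complex V). The symbols matched a further 12 gene entries that are annotated as pseudogenes or non-coding, and these were not counted. The rule itself uses no measured value, though it was set with earlier results of these data known.

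Polyadenylated RNA was sequenced from mouse cells labelled adipocytes, in 4 libraries of the BMPR2 DELX mutant and 4 of the control, called ROSA. BMPR2 is a receptor for bone morphogenetic proteins. The labels do not describe the DELX allele further and give no strain, age or sex, nor any promoter, and do not say whether the libraries of a group came from separate animals, so p-values measure only the spread between these libraries. Libraries held 28799445 to 43684785 counts in genes. Bmpr2, the gene named in the mutant label, was at 237, 208, 201 and 199 counts per 1000000 counts (CPM) in BMPR2 DELX 1 to 4 and 216, 206, 182 and 182 CPM in ROSA 1 to 4, a log2 difference of 0.10 ± 0.08 (SE, edgeR adjusted p = 0.47); counts per gene do not show which exons were read. Defining markers of the labelled cell type were near 0: no library held more than 6 counts of Adipoq, or more than 3 of Retn, Cfd, Cidec, Plin1 or Lep, whereas Fabp4 ran from 33.8 to 74.4 CPM and Pparg from 12.4 to 26.3 CPM. Of the brown fat genes, Ucp1 had at most 2 counts and Cidea at most 1, whereas Dio2 ran from 0.70 to 3.35 CPM. Fibroblast markers summed to 9839 to 14690 CPM in BMPR2 DELX and 8846 to 11158 CPM in ROSA, and smooth muscle markers to 8488 to 11640 and 10209 to 13431 CPM. The fibroblast sum was nearly all from the collagen genes Col1a1, Col1a2 and Col3a1. Over all libraries Pdgfra ran from 107 to 175 CPM, Dcn from 6.21 to 34.4 CPM and Lum, not tested, from 0 to 1.24 CPM. Of the 5 fibroblast markers tested, 1 passed the test, Col3a1 (log2 difference 1.25, edgeR adjusted p = 0.0013). Of the 4 smooth muscle markers 0 passed. Endothelial markers summed to 270.4 to 1181 and 526 to 1210 CPM, none passing the test. Epithelial markers summed to 10.7 to 47.9 and 4.65 to 16.1 CPM, and all 5 tested had positive log2 differences (median 3.02), of which Pax8 passed the test (edgeR adjusted p = 0.047). Pax8 was uneven, at 0.883, 1.92, 4.49 and 0.290 CPM in BMPR2 DELX 1 to 4 and 0.217, 0.315, 0.0997 and 0.0583 CPM in ROSA 1 to 4. Epcam and Cdh1, also of this list, had at most 5 and 6 counts, were not tested and had lower means in BMPR2 DELX. Macrophage markers summed to 12.6 to 26.7 and 5.28 to 11.2 CPM, mostly Cd68 and Lyz2, and of these 2, the only ones tested, Cd68 passed (log2 difference 0.72, edgeR adjusted p = 0.024). Ptprc, C1qc and Adgre1 had at most 18, 19 and 13 counts. The mean of Ptprc was lower in BMPR2 DELX (0.246 CPM, against 0.373 in ROSA), and those of C1qc and Adgre1 were higher. The part of these cells in the results was not tested. In bulk RNA, fewer cells of a type and less RNA per cell cannot be told apart.

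Of the 13 mRNAs of the mitochondrial genome, 7 were counted at 1901 to 192327 reads per library and 6 (mt-Co2, mt-Co3, mt-Atp6, mt-Atp8, mt-Nd3 and mt-Nd4l) at 0 to 148. The annotation holds nuclear copies of most of the latter, in a block of chromosome 1 between positions 24611535 and 24616197 of GRCm38, and a read that fits a gene and its copy equally well is set apart as multimapping in these tables. Multimapping reads made up 5.34% to 6.08% of the reads of a library. The sequences below show 3 such pairs, each as the first transcript and its copy on the same strand, with positions that differ in capitals. The first pair is a thinly counted gene whose copy is identical, the second a thinly counted gene with a single difference, and the third a well counted gene whose copy differs often enough to be told apart.
mt-Co2 (chrM:7013-7102, plus strand): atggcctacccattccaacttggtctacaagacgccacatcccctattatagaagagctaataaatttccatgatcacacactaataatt
Gm28661 (chr1:24615476-24615565, minus strand): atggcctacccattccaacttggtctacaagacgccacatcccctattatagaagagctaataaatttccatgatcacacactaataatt
mt-Nd3 (chrM:9459-9548, plus strand): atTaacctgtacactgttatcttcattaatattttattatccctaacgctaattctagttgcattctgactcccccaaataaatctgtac
Gm28438 (chr1:24613030-24613119, minus strand): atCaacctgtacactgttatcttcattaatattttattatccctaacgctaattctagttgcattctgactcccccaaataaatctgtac
mt-Co1 (chrM:5789-5878, plus strand): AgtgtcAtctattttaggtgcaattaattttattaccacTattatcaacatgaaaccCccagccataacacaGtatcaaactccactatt
Gm13340 (chr2:22589097-22589186, minus strand): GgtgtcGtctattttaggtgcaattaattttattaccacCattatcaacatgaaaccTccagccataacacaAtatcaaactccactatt
The mt-Co2 transcript and Gm28661 aligned over 681 bases with 0 mismatches. Over 345 bases, mt-Nd3 and Gm28438 differed once, at T3C, counting from 1 at the first base of the mitochondrial transcript. The mt-Co1 stretch starts at base 462 and holds 5 differences (A462G, A468G, T501C, C519T and G534A), of 37 over 1545 aligned bases. A separate copy, Gm29216 on chromosome 1, matches 483 bases of mt-Co1 with 1 mismatch, which is 31.3% of that transcript. For mt-Nd4, 63.6% of the transcript is matched without a mismatch by Gm28439. For mt-Atp8, of 204 bases, no annotated copy was found at 99% identity over 200 bases. Only annotated transcripts were searched, so a copy without an annotation would not be seen. The chromosome 1 copies themselves had at most 81 counts in any library. For genes with such a copy the value is a level of uniquely placed reads, which can be far from that of the transcript.

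**Figure D1:**
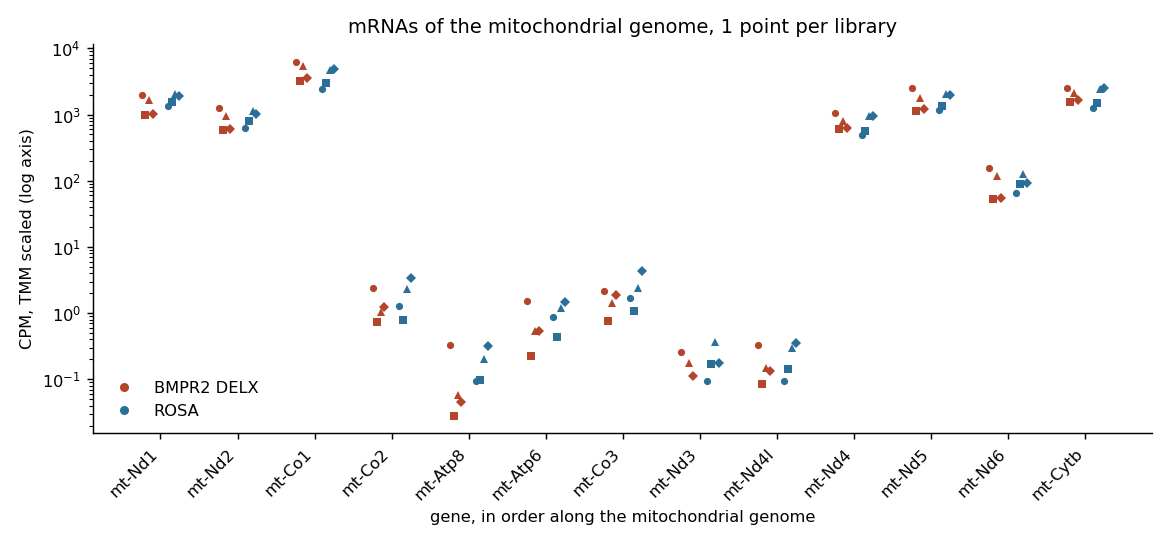
CPM of the 13 mRNAs of the mitochondrial genome on a log axis, in genome order, with 1 point per library (circle, square, triangle and diamond for replicates 1 to 4; a count of 0 is not drawn). Genes from mt-Co2 to mt-Nd4l lie below 5 CPM, the others above 50 CPM, and the groups overlap for every gene.

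Nuclear transcripts of the chain differed little between the groups. Of the 99 members, 92 had enough counts for the test (82 nuclear and 10 mitochondrial). Those left out were mt-Nd3, mt-Nd4l, mt-Atp8, Cox6a2, Cox7b2, Cox8b and Cox8c, with at most 12 counts in any library. With edgeR's quasi-likelihood fit and p adjusted by Benjamini and Hochberg over all 14887 genes tested, BMPR2 DELX had 0 members higher and 0 lower at an adjusted p below 0.05, where 9.10% of all genes tested were called (3.96% higher and 5.15% lower). At an unadjusted p below 0.05 there were 7 members higher and 2 lower, against 26.3% of all genes (12.9% higher and 13.4% lower). DESeq2 called 3 members higher (Cox7c, Cox6b2 and Ndufs7) and 0 lower, where it called 2298 of all 14887 genes (1070 higher and 1228 lower). Limma voom called 0 members, where it called 1638 of all genes (751 higher and 887 lower). The groups did not overlap for 4 members that were higher in BMPR2 DELX (Ndufb5, Uqcrc2, Cox7c and Atp5g2) and 2 that were lower (Ndufa4 and Ndufs5), where 18.0% of all genes did not overlap (8.32% higher and 9.65% lower). Ndufb5 and Ndufs5 are named for this count, after their values were seen. The log2 difference was positive for 59 of 92 members, where it was positive for 50.7% of all genes. Among nuclear members it was positive for 25 of 37 in complex I, 2 of 4 in complex II, 7 of 9 in complex III, 8 of 14 in complex IV and 12 of 17 in complex V.

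The size of the differences can be bounded. The median log2 difference was 0.04 over the nuclear members, with a median standard error of 0.07, and less than 0.01 over all genes tested (0.0045). By complex it was 0.05 for complex I, 0.04 for complex II, 0.05 for complex III, 0.03 for complex IV and 0.04 for complex V. The 95% interval lay within a 1.25-fold change in either direction for 64 of the 82 tested nuclear members, among them all 4 of complex II and all 9 of complex III, and within 1.5-fold for 78. For the mitochondrial members the median difference was -0.03, the median standard error 0.29, and the interval of 0 of the 10 lay within 1.5-fold. With the scaling of the libraries taken as given, the counts thus bound a change of most nuclear subunits closely and of the mitochondrial ones loosely. The intervals do not include an error of the scaling that all members share. With upper-quartile scaling factors the median of the nuclear members was 0.08, and that of all genes 0.04.

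**Figure D2:**
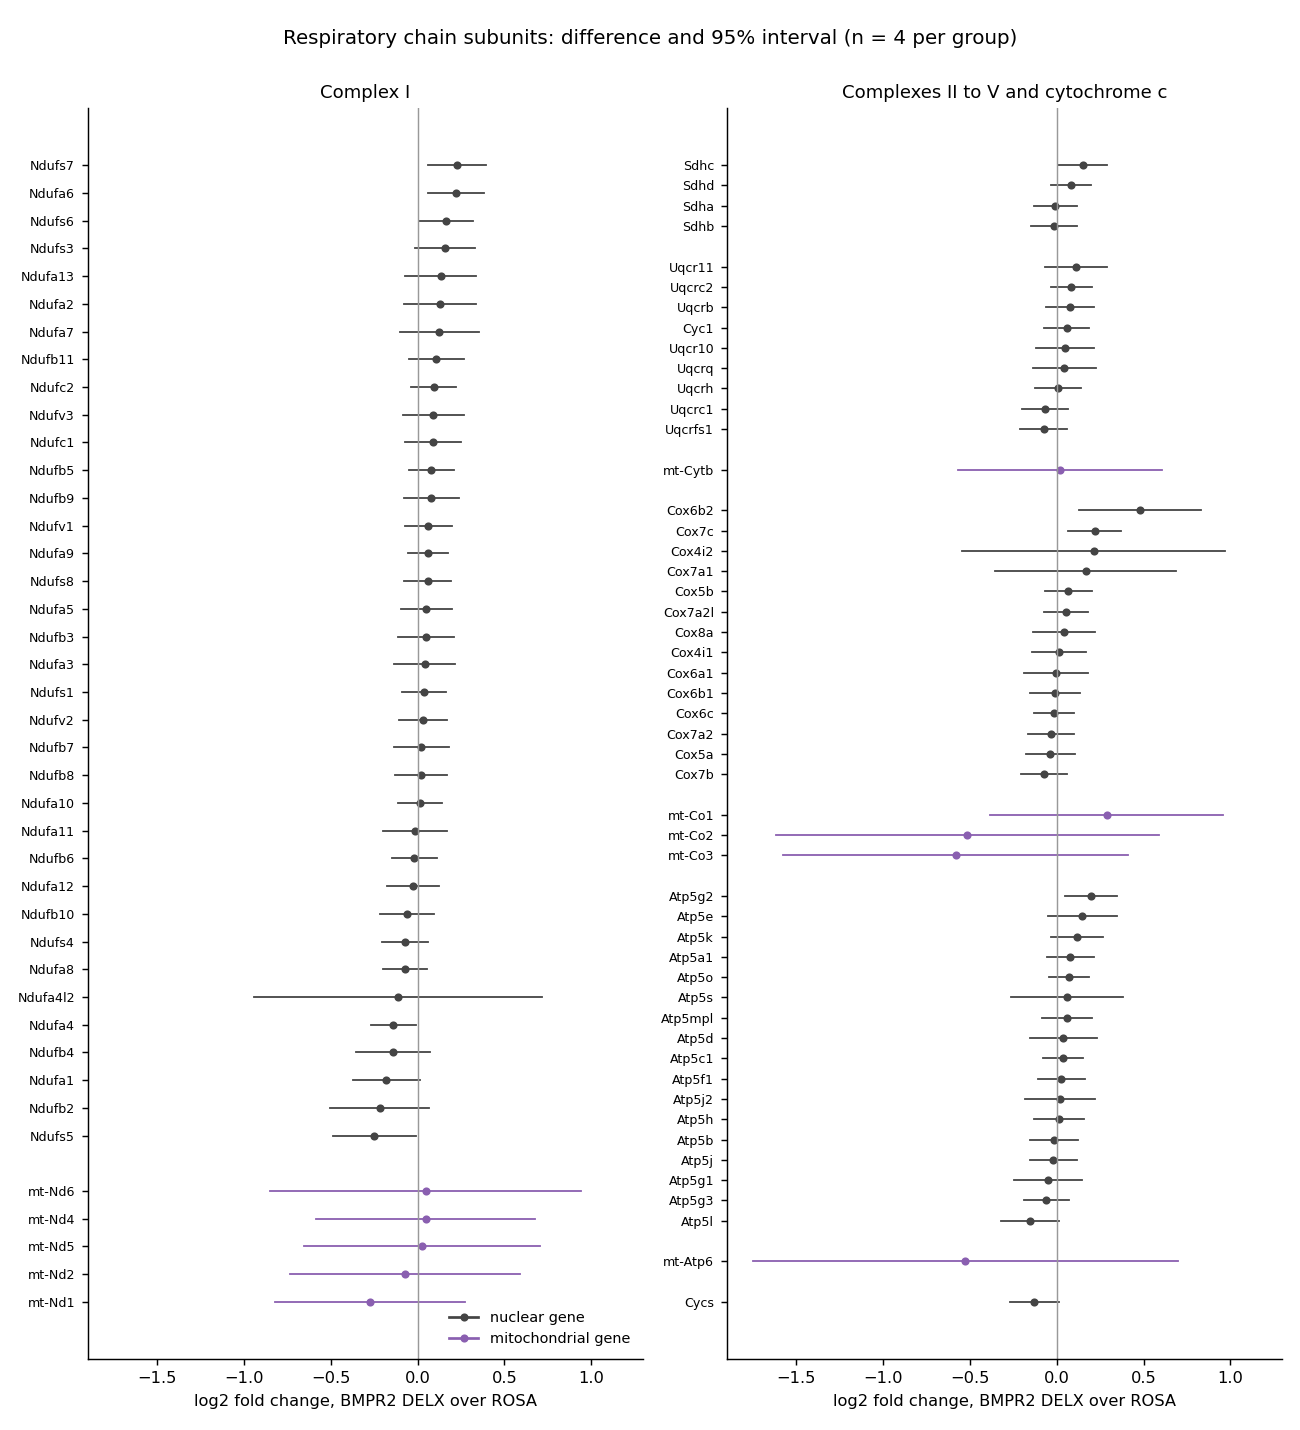
Log2 fold change of BMPR2 DELX over ROSA for tested members with its 95% interval (4 libraries per group), complex I on the left and the other complexes on the right, nuclear genes in grey and mitochondrial genes in purple. Nuclear points cluster near 0 with short intervals, except Cox6b2, Ndufa4l2, Cox4i2 and Cox7a1, whose intervals reach past a 1.5-fold change, while each mitochondrial interval spans 0 widely.

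Complex I takes electrons from NADH and pumps protons. Its nuclear members with the smallest p were Ndufs7, Ndufa6 and Ndufa4. Ndufs7, which holds the iron-sulfur cluster next to the quinone site, was at 33.3, 38.6, 36.2 and 40.7 CPM in BMPR2 DELX 1 to 4 and 31.3, 30.4, 33.6 and 31.8 CPM in ROSA 1 to 4. BMPR2 DELX 1 lay below ROSA 3, and the other BMPR2 DELX libraries lay above every ROSA library. The log2 difference was 0.23 ± 0.07 (edgeR adjusted p = 0.085), and without BMPR2 DELX 1 it was 0.29 with an adjusted p of 0.044. Ndufa6, an accessory subunit, was at 33.5, 35.7, 32.0 and 37.6 CPM in BMPR2 DELX 1 to 4 and 28.7, 28.7, 29.7 and 32.2 CPM in ROSA 1 to 4, with a log2 difference of 0.22 ± 0.07 (edgeR adjusted p = 0.087). Here BMPR2 DELX 3 lay just below ROSA 4. Ndufa4, named for complex I but since found with complex IV, had the highest level per length of the nuclear complex I symbols (136 CPM per kb of its principal transcript). It was at 75.4, 75.3, 82.8 and 82.4 CPM in BMPR2 DELX 1 to 4 and 88.2, 90.4, 85.2 and 84.0 CPM in ROSA 1 to 4, lower in every BMPR2 DELX library, with a log2 difference of -0.14 ± 0.06 (edgeR adjusted p = 0.17).

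The median level of the 37 nuclear complex I genes was 39.2 CPM per kb, and the lowest was Ndufb2 with 1.03 CPM per kb over an annotated transcript of 4371 bases. Ndufb2 was at 4.51, 4.2, 3.84 and 4.15 CPM in BMPR2 DELX 1 to 4 and 4.44, 4.41, 5.02 and 5.57 CPM in ROSA 1 to 4 (log2 difference -0.22 ± 0.13, edgeR adjusted p = 0.30). Ndufs5, an accessory subunit, was at 4.58, 4.62, 4.22 and 4.82 CPM in BMPR2 DELX 1 to 4 and 5.53, 5.6, 5.12 and 5.42 CPM in ROSA 1 to 4, lower in every BMPR2 DELX library (log2 difference -0.25 ± 0.11, edgeR adjusted p = 0.17). Its count is uncertain, since the processed pseudogene BC002163 matches 319 bases of its transcript at 99.4% and itself held up to 702 counts in a library. Ndufa12 has a similar copy, Gm15920, with up to 539 counts. Ndufb5 was at 33.6, 34.2, 34.1 and 36.1 CPM in BMPR2 DELX 1 to 4 and 32.5, 33.4, 31.3 and 33.2 CPM in ROSA 1 to 4, a narrow separation with a log2 difference of 0.08 ± 0.06 (edgeR adjusted p = 0.40). Its opposite-strand count was 1.41 times the unstranded one, so its level depends on the strand setting.

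Complex II, succinate dehydrogenase, also works in the citric acid cycle. Its catalytic pair hardly differed between the groups. The flavoprotein Sdha was at 155, 153, 154 and 154 CPM in BMPR2 DELX 1 to 4 and 162, 160, 147 and 150 CPM in ROSA 1 to 4, and the iron-sulfur subunit Sdhb at 57.4, 61.0, 56.0 and 61.9 CPM in BMPR2 DELX 1 to 4 and 61.2, 62.2, 56.7 and 59.1 CPM in ROSA 1 to 4. The log2 differences were -0.01 ± 0.05 and -0.02 ± 0.06 (edgeR adjusted p = 0.94 and 0.88). The membrane anchors had positive differences, which did not pass the test. Sdhc was at 82.8, 91.6, 92.8 and 98 CPM in BMPR2 DELX 1 to 4 and 85.6, 80.6, 80.6 and 82.7 CPM in ROSA 1 to 4 (log2 difference 0.15 ± 0.06, edgeR adjusted p = 0.17), with only BMPR2 DELX 1 inside the ROSA range. Sdhd was at 81.8, 84.0, 85.7 and 84.0 CPM in BMPR2 DELX 1 to 4 and 78.4, 82.2, 80.9 and 75.7 CPM in ROSA 1 to 4 (log2 difference 0.08 ± 0.05, edgeR adjusted p = 0.36). Per length, Sdhd was the highest of the 4 with 66.3 CPM per kb and Sdhc the lowest with 27.4 CPM per kb.

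Complex III passes electrons from ubiquinol to cytochrome c. The core protein Uqcrc2 was at 102, 106, 102 and 106 CPM in BMPR2 DELX 1 to 4 and 102, 102, 95.3 and 94.3 CPM in ROSA 1 to 4, with the lowest BMPR2 DELX library just above the highest ROSA library. Its log2 difference was 0.08 ± 0.05 (edgeR adjusted p = 0.35). Uqcr11, a small accessory subunit, was at 42.7, 54.3, 48.4 and 53.5 CPM in BMPR2 DELX 1 to 4 and 46.6, 45.3, 44.3 and 48.0 CPM in ROSA 1 to 4 (log2 difference 0.11 ± 0.08, edgeR adjusted p = 0.41). BMPR2 DELX 1 was the lowest of all 8 libraries for this gene and BMPR2 DELX 2 the highest. The Rieske iron-sulfur protein Uqcrfs1 was at 69.2, 67.6, 68.1 and 68.1 CPM in BMPR2 DELX 1 to 4 and 75.6, 73.8, 73.1 and 64.9 CPM in ROSA 1 to 4 (log2 difference -0.07 ± 0.06, edgeR adjusted p = 0.47). Levels per length of the 9 nuclear complex III genes ran from 51.4 CPM per kb for Uqcrfs1 to 136 for the hinge protein Uqcrh. Cytochrome c, from Cycs, was at 51.1, 54.6, 49.6 and 49.5 CPM in BMPR2 DELX 1 to 4 and 56.5, 58.9, 57.2 and 51.3 CPM in ROSA 1 to 4, with BMPR2 DELX 2 inside the ROSA range and the other BMPR2 DELX libraries below it. Its log2 difference was -0.13 ± 0.06 (edgeR adjusted p = 0.23), and 3 annotated copies match part of its transcript.

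Complex IV, cytochrome c oxidase, reduces oxygen. Cox7c, a small membrane subunit, had the smallest p of all members. It was at 47.7, 51.7, 44.4 and 46.8 CPM in BMPR2 DELX 1 to 4 and 39.8, 40.8, 44.2 and 39.1 CPM in ROSA 1 to 4, higher in every BMPR2 DELX library, though BMPR2 DELX 3 and ROSA 3 were almost level. The log2 difference was 0.22 ± 0.07 (edgeR adjusted p = 0.075, and 0.037 by DESeq2). A pseudogene copy, Gm10012, matches 315 bases of its transcript at 99.4% and had at most 3 counts. Cox7b was at 69.0, 74.4, 74.4 and 79.8 CPM in BMPR2 DELX 1 to 4 and 77.1, 80.5, 76.5 and 79.2 CPM in ROSA 1 to 4 (log2 difference -0.07 ± 0.06, edgeR adjusted p = 0.46). Cox6a1 had the highest level per length of the nuclear genes of the complex (263 CPM per kb) and was at 129, 152, 147 and 172 CPM in BMPR2 DELX 1 to 4 and 156, 152, 148 and 147 CPM in ROSA 1 to 4 (log2 difference -0.00 ± 0.08). BMPR2 DELX 1 was its lowest library and BMPR2 DELX 4 its highest, so the spread within the mutant group was wider than that within the control group.

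Several complex IV subunits exist in a general form and in forms known from heart, skeletal muscle, lung or testis, and here the general form held nearly all reads. Per transcript length, Cox4i2 made up 0.27% ± 0.07 of the COX4 signal in BMPR2 DELX and 0.24% ± 0.08 in ROSA (SD, n = 4). Cox6a2 made up 0.056% ± 0.009 and 0.052% ± 0.043 of COX6A. Cox7a1, which is high in muscle and brown fat, made up 2.42% ± 0.14 and 2.12% ± 0.52 of the sum with Cox7a2. None of these shares separated the groups. Cox8b, also known from muscle and brown fat, had 0 counts in all 8 libraries, which allows 0.0670 to 0.0997 CPM per library (3 counts, counting error only), and Cox8c and Cox7b2 had at most 1 count. Ndufa4l2, the form of NDUFA4 known from hypoxia, made up 0.82% ± 0.23 and 0.81% ± 0.45. In the same libraries striated muscle markers summed to 133 to 231 CPM in BMPR2 DELX and 318 to 569 CPM in ROSA, nearly all of it Acta1, while Ckm had at most 0.0485 CPM. Of the 2 tested, Acta1 passed (log2 difference -1.35, edgeR adjusted p = 0.018). The part of these markers in the isoform shares was not tested.

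The one isoform share of complex IV that did not overlap between the groups was that of Cox6b2, known from testis. Cox6b2 was at 3.6, 3.38, 2.82 and 3.64 CPM in BMPR2 DELX 1 to 4 and 2.20, 2.28, 2.89 and 2.27 CPM in ROSA 1 to 4. BMPR2 DELX 3 lay below ROSA 3, and the other BMPR2 DELX libraries lay above all of ROSA. It made up 2.66% ± 0.34 of COX6B in BMPR2 DELX and 1.91% ± 0.22 in ROSA (SD, n = 4). Its log2 difference of 0.48 ± 0.16 was the largest positive one among the tested members (edgeR adjusted p = 0.086, and 0.043 by DESeq2). The general form Cox6b1 was at 119, 134, 127 and 142 CPM in BMPR2 DELX 1 to 4 and 130, 131, 134 and 130 CPM in ROSA 1 to 4 (log2 difference -0.01 ± 0.06).

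Complex V makes ATP on its F1 head from the proton flow through its membrane ring. The catalytic beta subunit Atp5b had the highest level per length of all nuclear members (543 CPM per kb). It was at 976, 1062, 1024 and 1076 CPM in BMPR2 DELX 1 to 4 and 1100, 1050, 1025 and 1005 CPM in ROSA 1 to 4, with the groups overlapping (log2 difference -0.01 ± 0.06, edgeR adjusted p = 0.91). Of the nuclear genes placed in complex V by their symbol alone, the lowest per length was Atp5s with 2.4 CPM per kb. The ring is built of subunit c, which 3 genes encode with the same mature protein. Per length, Atp5g3 supplied 76.9% ± 1.8 of the subunit c signal in BMPR2 DELX and 79.3% ± 1.0 in ROSA, Atp5g2 18.6% ± 1.2 and 16.1% ± 0.9, and Atp5g1 4.49% ± 0.56 and 4.60% ± 0.20 (SD, n = 4). Atp5g3 thus dominated in every library. The low share of Atp5g1 rests on its annotated transcript of 4715 bases, against 731 for Atp5g2 and 723 for Atp5g3. Before division by length, Atp5g1 lay above Atp5g2 in both groups. Mutant means were 57.4 CPM for Atp5g1 and 36.7 for Atp5g2, and control means were 59.3 and 32.1. The order of Atp5g1 and Atp5g2 thus depends on the length used. Atp5g2 was at 34.2, 38.5, 34.9 and 39.4 CPM in BMPR2 DELX 1 to 4 and 31.6, 32.3, 31.2 and 33.2 CPM in ROSA 1 to 4, higher in every BMPR2 DELX library (log2 difference 0.20 ± 0.07, edgeR adjusted p = 0.097). The pseudogene Gm10175 matches 645 bases of its transcript without a mismatch and had at most 2 counts. Atp5l, subunit g in the membrane, was at 16.5, 15.1, 15.8 and 17.5 CPM in BMPR2 DELX 1 to 4 and 17, 18.4, 17.9 and 18.9 CPM in ROSA 1 to 4 (log2 difference -0.15 ± 0.08, edgeR adjusted p = 0.23). Atp5l is uncertain, since its opposite-strand count was 3.89 times the unstranded one and 2 copies match it. Atp5k, subunit e, was at 36.1, 39.2, 36.6 and 38.3 CPM in BMPR2 DELX 1 to 4 and 33.2, 38.1, 32.9 and 34.2 CPM in ROSA 1 to 4 (log2 difference 0.12 ± 0.07, edgeR adjusted p = 0.30).

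**Figure D3:**
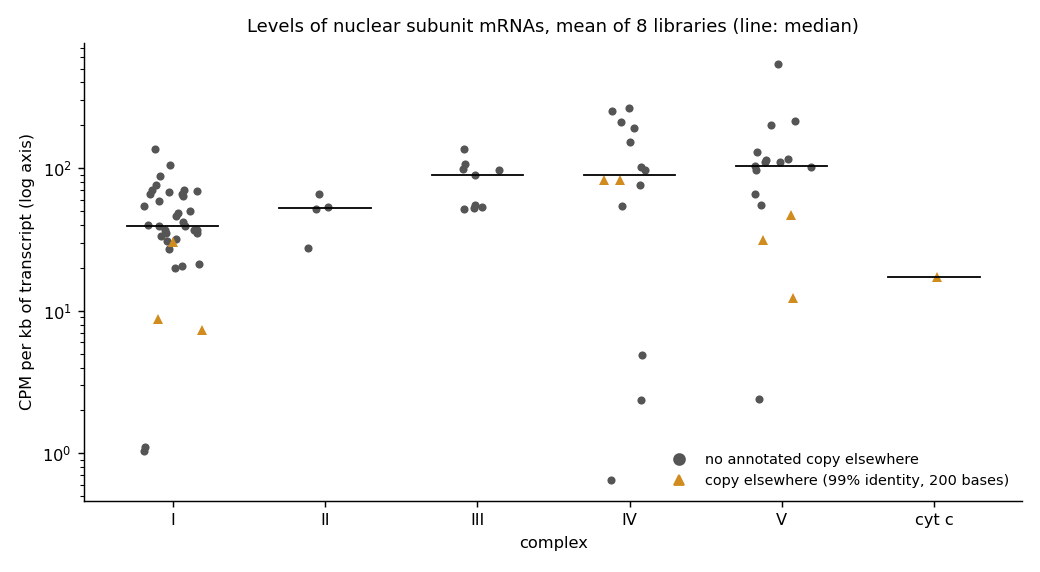
Mean CPM per kb of principal transcript over 8 libraries for the 82 tested nuclear members by complex, on a log axis, with the median as a line and members that have a near-identical copy elsewhere as triangles. Medians of complexes I to V run from 39.2 in complex I to 103 in complex V, cytochrome c (Cycs alone) lies at 17.2, and Atp5b lies highest of all. Each of the triangles in complexes I, IV and V lies below the line of its complex.

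The mRNAs of the mitochondrial genome are cut from long transcripts of both strands of the circle. Per length, mt-Co1 was at 2712 CPM per kb, mt-Cytb at 1693 and mt-Nd1 at 1625, above every nuclear member, whereas mt-Nd6 at 183 lay below Atp5b and Cox6a1. Together the 13 genes took 1.68%, 0.856%, 1.27% and 0.897% of all counts in BMPR2 DELX 1 to 4 and 0.677%, 0.845%, 1.34% and 1.33% in ROSA 1 to 4. High and low libraries occurred in both groups. BMPR2 DELX 1 and 3 and ROSA 3 and 4 were high, and the other 4 were low. The spread within a group was 31.7% of the mean in BMPR2 DELX and 29.4% in ROSA (CV of the summed CPM), against 4.45% and 2.15% for the nuclear members.

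No mitochondrial member was called by edgeR. The complex I core subunit mt-Nd1 was at 1969, 997, 1647 and 1025 CPM in BMPR2 DELX 1 to 4 and 1344, 1525, 2029 and 1910 CPM in ROSA 1 to 4 (log2 difference -0.27 ± 0.24, edgeR adjusted p = 0.51). The catalytic subunit of complex IV, mt-Co1, was at 6290, 3220, 5337 and 3578 CPM in BMPR2 DELX 1 to 4 and 2446, 2954, 4752 and 4940 CPM in ROSA 1 to 4 (log2 difference 0.29 ± 0.29, edgeR adjusted p = 0.57). Both followed the split of high and low libraries, not that of the groups. Cytochrome b of complex III, mt-Cytb, was at 2512, 1548, 2087 and 1647 CPM in BMPR2 DELX 1 to 4 and 1245, 1485, 2474 and 2497 CPM in ROSA 1 to 4 (log2 difference 0.02 ± 0.26, edgeR adjusted p = 0.97). For mt-Nd2, mt-Nd4 and mt-Nd5, further core subunits of complex I, the log2 differences were -0.07 ± 0.29, 0.05 ± 0.28 and 0.02 ± 0.30. The direction of mt-Nd4, mt-Nd5, mt-Cytb and mt-Co1 turned without ROSA 1 and 2, as given under the dependence on processing. The only member on the other strand of the circle, mt-Nd6, was at 158, 53.6, 119 and 54.6 CPM in BMPR2 DELX 1 to 4 and 66.3, 89.1, 127 and 91.0 CPM in ROSA 1 to 4 (log2 difference 0.05 ± 0.39, edgeR adjusted p = 0.95). Its opposite-strand count was 0.22 times the unstranded one, so most reads at this locus came from the other strand. Of the thinly counted members, mt-Co2 was at 2.42, 0.732, 1.06 and 1.25 CPM in BMPR2 DELX 1 to 4 and 1.27, 0.776, 2.33 and 3.41 CPM in ROSA 1 to 4, mt-Co3 at 2.19, 0.761, 1.44 and 1.90 CPM in BMPR2 DELX 1 to 4 and 1.68, 1.09, 2.36 and 4.32 CPM in ROSA 1 to 4 and mt-Atp6, subunit a of the ATP synthase, at 1.5, 0.225, 0.528 and 0.536 CPM in BMPR2 DELX 1 to 4 and 0.869, 0.436, 1.20 and 1.49 CPM in ROSA 1 to 4. Counts of the 3 untested genes were at most 11 for mt-Nd3 and mt-Atp8 and 12 for mt-Nd4l. BMPR2 DELX 2 was the lowest library for each of mt-Co2, mt-Co3 and mt-Atp6.

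Some ratios of these mRNAs to mt-Nd1 differed more clearly between the groups than the levels did. The ratio of mt-Co1 to mt-Nd1 read counts was 3.19, 3.23, 3.24 and 3.49 in BMPR2 DELX 1 to 4 and 1.82, 1.94, 2.34 and 2.59 in ROSA 1 to 4. The lowest BMPR2 DELX library lay above the highest ROSA library. The means were 3.29 ± 0.14 and 2.17 ± 0.36 (SD, n = 4), a log2 difference of 0.61, or 0.42 without ROSA 1 and 2. This ratio was chosen after the values were seen, so it is given without a test. For mt-Nd5 the ratio to mt-Nd1 was 1.29, 1.14, 1.08 and 1.20 against 0.862, 0.888, 1.02 and 1.04, and for mt-Nd2 it was 0.636, 0.576, 0.584 and 0.584 against 0.466, 0.522, 0.552 and 0.532. Neither overlapped between the groups. Ratios of mt-Cytb to mt-Nd1, at 1.28, 1.55, 1.27 and 1.61 against 0.926, 0.974, 1.22 and 1.31, overlapped, as did those of mt-Nd4. These ratios all share mt-Nd1 as the divisor, so they are not separate observations. The ratio of mt-Nd6 to mt-Nd5, without that divisor, overlapped, at 0.0623, 0.0472, 0.0671 and 0.0445 against 0.0572, 0.0658, 0.0610 and 0.0458. How often ratios of other gene pairs do not overlap was not measured. The polyA-selected libraries also held mitochondrial ribosomal RNA, at 6.29, 6.62, 6.74 and 6.23 counts per 100 counts of the 13 mRNAs in BMPR2 DELX 1 to 4 and 20.5, 10.7, 7.93 and 6.72 in ROSA 1 to 4. ROSA 1, the highest in this measure and lowest in the mt-Co1 ratio, also had the largest share of reads outside genes, ambiguous, multimapping or unmapped (22.0%, against 14.7% to 17.3% in the other libraries). The part of these measures in the ratios was not tested.

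**Figure D4:**
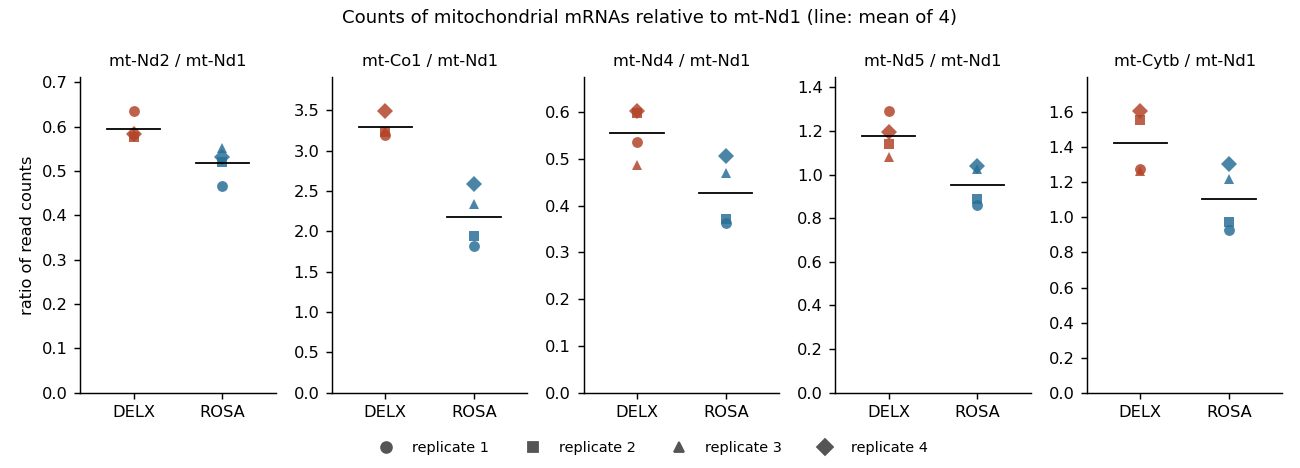
Read counts of 5 mitochondrial mRNAs divided by those of mt-Nd1, with 1 point per library (shape: replicate) and the mean of 4 as a line; each panel has its own axis from 0. The mt-Co1 panel shows all BMPR2 DELX libraries between 3.19 and 3.49 and all ROSA libraries between 1.82 and 2.59.

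Nuclear and mitochondrial transcripts of the chain did not move together across libraries. Each library was described by the median deviation of its members from their mean over the 8 libraries, in log2 CPM. For the 7 well counted mitochondrial mRNAs this ran from -0.49 in BMPR2 DELX 2 to 0.59 in BMPR2 DELX 1, and for the 82 nuclear members from -0.05 in BMPR2 DELX 1 to 0.08 in BMPR2 DELX 4. BMPR2 DELX 1 was the highest library for the mitochondrial mRNAs and the lowest for the nuclear ones, with 59 of 82 nuclear members below their mean. The 4 libraries lowest in mitochondrial mRNA (BMPR2 DELX 2 and 4, ROSA 1 and 2) were the 4 highest in nuclear members. In BMPR2 DELX 4, 69 of the 82 nuclear members lay above their mean, and in BMPR2 DELX 2 it was 63. These are 8 points that share library size and scaling, and the order is given as a description.

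**Figure D5:**
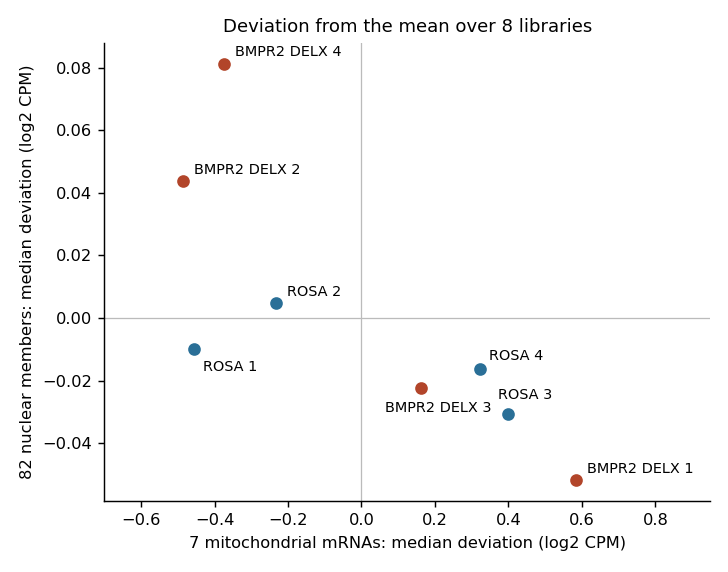
Median deviation from the mean over 8 libraries (log2 CPM) of the 82 tested nuclear members (vertical) against that of the 7 well counted mitochondrial mRNAs (horizontal), 1 point per library, BMPR2 DELX in red and ROSA in blue. The 4 libraries left of 0 lie above the 4 right of 0.

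Summed over the 86 nuclear members, the level was 6195, 6705, 6424 and 6848 CPM in BMPR2 DELX 1 to 4 and 6566, 6548, 6328 and 6309 CPM in ROSA 1 to 4. The groups overlapped. As a plain share of all counts, without scaling factors, the same genes took 0.658%, 0.707%, 0.643% and 0.702% in BMPR2 DELX and 0.603%, 0.631%, 0.628% and 0.626% in ROSA, with every BMPR2 DELX library above every ROSA library. The trimmed mean of M values (TMM) factors that separate these figures were 1.00 to 1.06 in BMPR2 DELX and 0.918 to 0.993 in ROSA. Whether the nuclear members as a whole separate the groups thus rested on the scaling.

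Nuclear subunit genes are known targets of the factors NRF1 and the ETS protein GABP. RefSeq promoters (GRCm38.p6, 250 bases before to 50 after the start) were matched by symbol for 67 of the 86 nuclear members, giving 72 promoters among 32851. Those without an entry included Atp5a1, Atp5f1, Atp5mpl, Atp5s, Cox4i1, Cox4i2, Cox6a2, Cox6c, Cox8c, Cyc1, Ndufa2, Ndufa4l2, Ndufb9, Ndufs1, Sdhc, Uqcrb, Uqcrc2 and Uqcrq. The NRF1 motif, which is GCGCA, any base and GCGC, on either strand, stood in 25.0% of member promoters and 4.60% of all promoters. Among promoters with at least 15 CpG dinucleotides it stood in 32.7% of 55 and 12.0% of 11378. The ETS motif ACTTCCG stood in 12.5% and 6.42%, the YY1 motif AAGATGGCG in 9.72% and 1.40%, and TATAAA in 11.1% and 13.6%, again on either strand. Among the promoters with at least 15 CpG the ETS motif was about as frequent in members as in all (14.5% and 13.6%), the YY1 motif stood in 9.09% and 3.32%, and TATAAA, less frequent in members over all promoters, was the more frequent there (7.27% and 4.61%). That share of TATAAA rests on 4 member promoters, which include overlapping windows of the same gene, Ndufa7. By complex, the NRF1 motif stood in 8 of 34 promoters of complex I, 2 of 3 of complex II, 1 of 5 of complex III, 1 of 13 of complex IV and 6 of 16 of complex V. The promoters below are those of Sdha, with 3 matches, of Cox6a1, the nuclear complex IV gene highest per length, and of Atp5g2, whose groups did not overlap. NRF1 matches are in capitals.
Sdha (chr13:74350191-74350490, minus strand): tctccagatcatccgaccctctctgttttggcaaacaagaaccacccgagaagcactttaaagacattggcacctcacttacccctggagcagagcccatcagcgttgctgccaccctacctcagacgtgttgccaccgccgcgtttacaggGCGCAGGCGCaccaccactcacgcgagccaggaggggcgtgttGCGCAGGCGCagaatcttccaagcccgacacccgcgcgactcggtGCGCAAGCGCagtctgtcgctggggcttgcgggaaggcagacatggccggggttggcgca
Cox6a1 (chr5:115348909-115349208, minus strand): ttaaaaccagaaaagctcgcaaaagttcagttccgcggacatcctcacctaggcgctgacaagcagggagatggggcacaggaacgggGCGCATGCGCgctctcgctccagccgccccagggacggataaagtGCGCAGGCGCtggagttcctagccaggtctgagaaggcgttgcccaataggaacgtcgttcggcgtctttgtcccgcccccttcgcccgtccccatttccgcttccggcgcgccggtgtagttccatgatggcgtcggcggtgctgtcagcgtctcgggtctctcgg
Atp5g2 (chr15:102670998-102671297, minus strand): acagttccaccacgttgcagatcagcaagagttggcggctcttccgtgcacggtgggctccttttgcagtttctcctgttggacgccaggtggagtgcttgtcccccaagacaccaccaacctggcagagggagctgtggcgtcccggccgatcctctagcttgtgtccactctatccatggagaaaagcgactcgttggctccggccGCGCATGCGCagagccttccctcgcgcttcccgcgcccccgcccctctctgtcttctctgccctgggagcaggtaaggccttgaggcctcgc
The matched letters are a description of these windows and not evidence of binding. The gene of the factor itself, Nrf1, was at 25.3, 28.6, 23.6 and 22.4 CPM in BMPR2 DELX 1 to 4 and 23.3, 20.6, 21 and 22.5 CPM in ROSA 1 to 4 (log2 difference 0.19 ± 0.09, edgeR adjusted p = 0.20).

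Genes that assemble, regulate or feed the chain were read as companion lists holding 99 tested genes in all, of which 3 rose and 3 fell in BMPR2 DELX, where 9.10% of all genes tested were called. In complex I assembly, 2 of 18 tested genes rose and 0 fell, with a list median of 0.17. Ndufaf3, an early assembly factor, was at 8.05, 9.10, 7.89 and 9.85 CPM in BMPR2 DELX 1 to 4 and 5.40, 6.13, 5.05 and 6.07 CPM in ROSA 1 to 4, higher in every BMPR2 DELX library (log2 difference 0.62 ± 0.12, edgeR adjusted p = 0.014). Foxred1, a later one, was at 13.4, 13.6, 12.3 and 12.8 CPM in BMPR2 DELX 1 to 4 and 9.22, 9.48, 11.1 and 10.7 CPM in ROSA 1 to 4 (log2 difference 0.36 ± 0.09, edgeR adjusted p = 0.041). Ndufaf4, also of this list, had a negative difference that did not pass the test. It was at 20.6, 14.3, 15.2 and 12.3 CPM in BMPR2 DELX 1 to 4. In ROSA 1 to 4 it was at 19.1, 20.5, 21.8 and 21.3 CPM (log2 difference -0.41 ± 0.14, edgeR adjusted p = 0.10). Limma voom called Ndufaf4 lower (adjusted p = 0.040), and with 1 library left out its edgeR adjusted p ran from 0.017 to 0.21. In complex IV assembly, 1 of 22 fell and 0 rose. Coa7 was at 7.75, 7.80, 6.13 and 6.94 CPM in BMPR2 DELX 1 to 4 and 9.75, 10.5, 9.50 and 8.87 CPM in ROSA 1 to 4 (log2 difference -0.43 ± 0.11, edgeR adjusted p = 0.039). In the complex V list, 1 of 5 rose and 0 fell. Atpif1, the inhibitor of the ATP synthase, was at 61.3, 65.6, 60.6 and 66.2 CPM in BMPR2 DELX 1 to 4 and 50.2, 51.6, 54.4 and 54.1 CPM in ROSA 1 to 4, without overlap (log2 difference 0.27 ± 0.06, edgeR adjusted p = 0.022). In the lists of complex II assembly (4 tested) and complex III assembly (6 tested), 0 were called by edgeR in either direction, with 1 and 0 at an unadjusted p below 0.05.

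Among electron carriers and entry enzymes, 1 of 16 fell and 0 rose. Gpd2, the mitochondrial glycerol 3-phosphate dehydrogenase that passes electrons to ubiquinone beside complexes I and II, was at 66.2, 60.9, 63.7 and 59.8 CPM in BMPR2 DELX 1 to 4 and 101, 93.2, 103 and 69.2 CPM in ROSA 1 to 4, lower in every BMPR2 DELX library. Its log2 difference was -0.55 ± 0.12 (edgeR adjusted p = 0.020), and ROSA 4 lay well below the other ROSA libraries. In mitochondrial DNA maintenance and transcription, 1 of 16 fell and 0 rose. Tfb2m, a factor that the mitochondrial RNA polymerase needs to start, was at 12.2, 10.9, 12.5 and 12.8 CPM in BMPR2 DELX 1 to 4 and 15.3, 17, 15.5 and 13.6 CPM in ROSA 1 to 4 (log2 difference -0.34 ± 0.09, edgeR adjusted p = 0.048). Lrpprc, which stabilises mitochondrial mRNAs, was at 85, 86.9, 78.8 and 84.3 CPM in BMPR2 DELX 1 to 4 and 101, 96.1, 93.6 and 88.2 CPM in ROSA 1 to 4 (log2 difference -0.18 ± 0.06, edgeR adjusted p = 0.098). Of 9 tested regulators of mitochondrial genes 0 were called, with 1 at an unadjusted p below 0.05, Ppargc1b, at 1.41, 1.61, 1.67 and 1.47 CPM in BMPR2 DELX 1 to 4 and 1.09, 0.776, 1.23 and 0.962 CPM in ROSA 1 to 4 (log2 difference 0.61 ± 0.20, edgeR adjusted p = 0.088). Of 4 tested carriers for uncoupling, phosphate and adenine nucleotides 0 were called by edgeR and 2 had an unadjusted p below 0.05. Slc25a3, which imports phosphate for ATP synthesis, was at 376, 405, 381 and 392 CPM in BMPR2 DELX 1 to 4 and 467, 467, 422 and 420 CPM in ROSA 1 to 4 (log2 difference -0.19 ± 0.06, edgeR adjusted p = 0.084). The adenine nucleotide carrier Slc25a4 was at 349, 352, 368 and 367 CPM in BMPR2 DELX 1 to 4 and 408, 410, 388 and 388 CPM in ROSA 1 to 4 (log2 difference -0.15 ± 0.06, edgeR adjusted p = 0.12). DESeq2 called both lower, with adjusted p of 0.028 each. Of the 6 called companion genes, only Ndufaf3 kept an adjusted p below 0.05 when each library was left out in turn.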

How the data were processed

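RNA was extracted with a Qiagen RNEasy kit, per the labels' protocols. The deposited tables, made by the authors, hold whole-number read counts per gene, with GRCm38, STAR 2.5.2b and HTSeq named in no role, per the submitters' processing notes. The annotation release and any read filter are not given in the sources used here. The opposite-strand column was used, which held 92.1% to 94.0% of strand-assigned counts, and the 4 lines naming no gene were left out. GENCODE M21 gave symbols, principal transcripts and positions for 49326 of the 49671 gene entries.

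Genes kept by filterByExpr were fitted with edgeR 4.0.16 (R 4.3.3, TMM, robust quasi-likelihood) by group, tested on simulated data first. Alternatives used DESeq2 1.42.0, limma 3.58.1, other scaling, filters, strand and library sets. CPM are TMM scaled, and a standard error is that of the fitted log2 difference. Copies were transcripts elsewhere matched by blastn 2.17.0 at 99% identity over 200 bases. Figures were drawn with matplotlib 3.10.9. The values of 1 member are not reported here, and it is not drawn among the log2 differences. Members and lists were chosen with earlier results of these data known. The genes named are the mitochondrial members, the 3 nuclear members of smallest p, the highest and lowest per length in each complex, the isoform sets and up to 3 genes of each companion list by p. Replicate numbers were not taken to pair the samples and entered only an alternative.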

Additional observations from a re-analysis of the deposited data

Results flagged for a closer look

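In 4 of 166 groups of 4 values, 1 library stood far from the other libraries of its group, relative to the range (Dixon's 95% value); chance gives about 1 in 20 groups. Cox6b2 in ROSA 3 was at 2.89 CPM, with the other ROSA libraries at 2.20 to 2.28 CPM. Tmem70, an assembly factor, was at 46.5 CPM in ROSA 4 and at 37.9 to 38.7 CPM in the other ROSA libraries. The ratio of mt-Co1 to mt-Nd1 counts was 3.49 in BMPR2 DELX 4 and 3.19 to 3.24 in the rest of its group. The ratio of mt-Nd2 to mt-Nd1 counts was 0.636 in BMPR2 DELX 1 and 0.576 to 0.584 in the rest. Without ROSA 3 the log2 difference of Cox6b2 was 0.58 (edgeR adjusted p = 0.066), and without BMPR2 DELX 4 that of the mt-Co1 ratio was 0.58.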

How the results depend on the processing

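The count of members called lower was 0 under every alternative run. The count called higher was 3 with DESeq2 and 0 to 1 when each library was left out in turn, the 1 being Ndufs7 without BMPR2 DELX 1. Calls over all genes numbered 1355, or 2298 with DESeq2 and 477 to 1266 with a library left out (477 without ROSA 2, 631 without ROSA 1, 659 without BMPR2 DELX 2 and 871 without BMPR2 DELX 3). Leaving out ROSA 1 and ROSA 2, an alternative chosen after seeing the data, gave 172. With upper-quartile factors 734 of 1340 calls were higher, against 589 of 1355 with TMM; the median of all genes moved to 0.04. The median of nuclear members was positive throughout, at 0.01 to 0.08, while that of the mitochondrial members ran from -0.40 to 0.11.

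Directions of uncalled members near 0 turned as follows, with log2 differences. Upper-quartile factors gave Sdhb 0.022, Sdha 0.031, Cox6a1 0.036, Atp5b 0.025, Cox6b1 0.030 and Cox7a2 0.0050. No count filter gave Sdha 0.0063, Cox6a1 0.011, Atp5b 0.00017 and Cox6b1 0.0065. Unstranded counts gave mt-Nd6 -0.053, Sdha 0.0057, Cox6a1 0.011 and Cox6b1 0.0043. Limma voom gave mt-Nd5 -0.019, mt-Nd6 -0.13, Cox6a1 0.0030 and Cox6b1 0.0031. Without ROSA 1 and ROSA 2 the values were mt-Nd4 -0.31, mt-Nd5 -0.27, mt-Nd6 -0.16, mt-Cytb -0.34, mt-Co1 -0.058, Sdhb 0.044, Sdha 0.066, Cox6a1 0.044, Atp5b 0.042, Atp5s -0.024, Cox7a1 -0.055 and Atp5g3 0.013. With 1 library left out, ranges that crossed 0 were mt-Nd2 -0.31 to 0.075, mt-Nd4 -0.14 to 0.20, mt-Nd5 -0.24 to 0.17, mt-Nd6 -0.29 to 0.25, mt-Cytb -0.13 to 0.17, Sdhb -0.043 to 0.0096, Sdha -0.033 to 0.028, Uqcrh -0.025 to 0.041, Cox6a1 -0.074 to 0.069, Atp5b -0.034 to 0.024, Atp5s -0.019 to 0.11, Cox4i1 -0.029 to 0.067, Cox4i2 -0.011 to 0.44, Cox6b1 -0.052 to 0.042, Cox7a2 -0.060 to 0.0047, Cox8a -0.020 to 0.12, Ndufa4l2 -0.28 to 0.32 and Atp5g1 -0.12 to 0.015. The causes were not tested.

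The deviations of same-numbered libraries had correlations of 0.0050, 0.21, 0.24 and 0.093, all positive. Those of differently numbered libraries ran from -0.24 to 0.18. The numbers were not taken to pair the samples, which these values do not settle. With the replicate number as a block, 0 members and 1245 genes were called, and mt-Nd5 was at -0.021 and mt-Nd6 at -0.090.

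Among the companion genes, Ndufaf3 lost its call without ROSA 1 and ROSA 2 together (adjusted p = 0.083) and in 0 of 8 fits with 1 library left out. Gpd2 lost it in 3 of 8 (without BMPR2 DELX 2, ROSA 1 or ROSA 2; adjusted p up to 0.065), Atpif1 in 4 of 8 (BMPR2 DELX 2 or 4, ROSA 1 or 2; up to 0.070), and Foxred1, Coa7 and Tfb2m in 7 of 8 each (all but ROSA 3, ROSA 4 and ROSA 4; up to 0.11, 0.12 and 0.15). Thin counts limit the 6 mitochondrial mRNAs of at most 148 counts.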
